A study of Mus musculus with 24 samples.

Results

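The genes described here encode the machinery of oxidative phosphorylation, and they were measured in the kidney inner medulla of C57BL/6 mice, an inbred laboratory strain, after saline or cisplatin. They were chosen by symbol: names beginning Ndufa, Ndufb, Ndufc, Ndufs, Ndufv, Uqcr, Cox4 to Cox8 or Atp5, together with Sdha to Sdhd, Cyc1 and the 13 protein genes of the mitochondrial genome, without pseudogene symbols and with a count in at least 20 of 24 libraries. The rule used names and detection, not the size of any difference. It took 105 of 55416 gene identifiers: 82 nuclear genes for subunits (37 of complex I, 4 of complex II, 9 of complex III, 16 of complex IV and 16 of complex V), the 13 mitochondrial genes (7 of complex I, 1 of complex III, 3 of complex IV and 2 of complex V), 8 assembly factors of complex I that share a prefix, and Cox7a2l and Atp5s, which were counted apart. Of these, 103 had enough counts to be tested, and the exceptions were Cox6c2 and Ndufb4c, which the annotation gives as processed pseudogenes although their symbols do not say so, and which are counted among the 82.

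The libraries comprised 6 from males given saline, 6 from males given cisplatin, 7 from females given saline and 5 from females given cisplatin. Each mouse was aged 9 to 10 weeks and received 1 intraperitoneal dose of 100 µl, either saline or cisplatin at 15 mg/kg dissolved in saline, and the tissue was frozen 72 h later. Cisplatin, a platinum compound given in cancer chemotherapy, forms DNA adducts and is toxic to the kidney. The labels give no transgene and do not say whether a library is 1 animal or a pool, so a p-value here speaks only of how libraries vary, which may be technical.

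Oxidative phosphorylation passes electrons from NADH through complex I, or from succinate through complex II, to complexes III and IV and on to oxygen, and the proton gradient this builds drives complex V, the ATP synthase. Complexes I, III, IV and V join subunits made from the nuclear genome with a few made inside the mitochondrion, whereas all complex II subunits are nuclear. The inner medulla works at low oxygen and leans on glycolysis, and the thick ascending limb and the proximal tubule of the outer zones are the segments richest in mitochondria.

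Total counts ranged between libraries from 18084242 to 27279102. The 9 markers of inner medullary principal cells, such as the water channel gene Aqp2, were detected and summed to between 5000 and 10900 CPM (the usual counts-per-total unit, with library sizes scaled by TMM) in all libraries. Markers of the thick ascending limb, which lies outside the inner medulla, were also present and varied widely, from 1410 to 14900 CPM among saline libraries. A score of thick ascending limb and proximal tubule markers (mean log2 CPM) was lowest among saline libraries in female saline 6, at 3.95, which also had the lowest share of counts from the mitochondrial genes (2.68%) and from the nuclear subunit genes (1.02%) in its treatment. The score was lower still in male cisplatin 1 and 2 and female cisplatin 5 (3.53, 3.69 and 3.63). Their mitochondrial shares were 4.17%, 4.89% and 4.00%, and their nuclear shares 1.17%, 1.48% and 1.53%. The mean score was 5.65 in male saline and 4.81 in male cisplatin, and 4.86 and 4.48 in females. In bulk tissue, fewer cells of a type and less RNA per cell cannot be told apart. Male cisplatin 5 stood apart from the other libraries in the balance of the genomes and in the difference between short and long nuclear members, both given below. Some results that rest on it are given with and without it, and the others include it.

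The mitochondrial genes together took more of the library than the nuclear subunit genes did, and neither share separated cisplatin from saline. The mitochondrial share was 5.26% ± 1.06 of all gene counts in male saline (SD, n = 6), with libraries from 3.38% to 6.03%. It was 4.28% ± 1.398 in male cisplatin (n = 6), with a median of 4.12% and a range of 2.13% to 6.43%. In females it was 4.46% ± 1.15 under saline (n = 7, range 2.68% to 6.18%), and the 5 cisplatin libraries held 4.88%, 5.21%, 5.45%, 4.40% and 4.00%. The groups overlapped in both sexes, and no test of these shares was made. The nuclear subunit share was 1.46% ± 0.221 in male saline and 1.55% ± 0.459 in male cisplatin. In females it was 1.32% ± 0.219 under saline and 1.52% ± 0.163 under cisplatin, where every library lay between 1.33% and 1.73%.

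The balance of the genomes, taken as the log2 ratio of the mitochondrial to the nuclear share, was 1.83 ± 0.16 in male saline, 1.74 ± 0.18 in female saline and 1.66 ± 0.25 in female cisplatin libraries. In male cisplatin it ranged from 1.52 to 1.84 in 5 libraries and was 0.11 in male cisplatin 5. That library had the smallest mitochondrial share of all (2.13%) beside the second largest nuclear share (1.98%). Without it the male cisplatin mean was 1.70 ± 0.12 (n = 5).

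**Figure D1:**
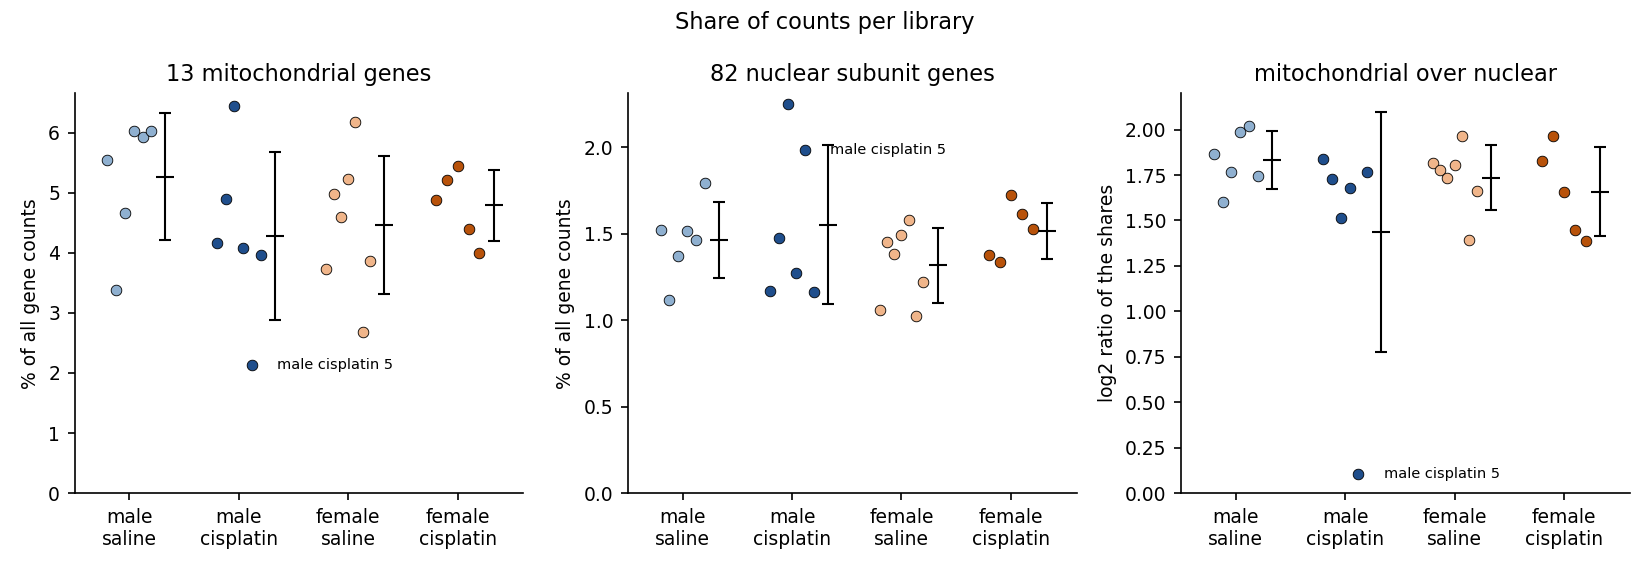
Percent of all gene counts held by the 13 mitochondrial genes (left) and the 82 nuclear subunit genes (middle), and the log2 ratio of both shares (right), with 1 point per library and the mean ± SD beside each group. The groups overlap in every panel, and male cisplatin 5 lies alone at a log2 ratio of 0.11.

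Cisplatin was tested against saline in males, in females and as the mean of both sexes' log2 fold changes, called here the mean cisplatin effect. In the mean cisplatin effect, 19 of 80 tested nuclear subunit genes were higher and 0 were lower at an adjusted p under 0.05 (edgeR's quasi-likelihood test, Benjamini-Hochberg adjustment over 18005 genes). This is 23.8% of them higher, against 16.2% of all tested genes higher and 10.9% lower. At an unadjusted p under 0.05, 39 were higher and 2 lower, and DESeq2 called 18. Their median log2 fold change was 0.28, beside 0.01 over all genes tested, and 73 of 80 were above 0. Of the 13 mitochondrial genes, 0 passed in either direction by edgeR or DESeq2, 2 had an unadjusted p under 0.05, and the median was -0.03. Among the other members, Ndufaf8, for an assembly factor, and Cox7a2l were higher (log2 fold changes 0.38 and 0.29, adjusted p = 0.0317 and 0.0417 by edgeR).

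The number called moved with single libraries in both directions. It fell to 12, 10 and 10 without male saline 1, 2 or 3, to 7 and 9 without male cisplatin 3 or 5, to 11, 12, 12 and 11 without female saline 1, 3, 6 or 7, and to 6 and 8 without female cisplatin 4 or 5. It rose to 31 without male saline 6, to 33, 31 and 38 without male cisplatin 1, 4 or 6, and to 30 without female cisplatin 2. Without male cisplatin 5 and female saline 1 and 6 together, which stood apart in earlier work on these libraries, 4 were higher and 2 were lower (Sdha and Ndufa4l2). The genes Cox6b2, Cox6c, Ndufa2 and Ndufa7 passed in the mean cisplatin effect under each of the 34 alternatives run, with male cisplatin 5 left out included.

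Cox6b2 (ENSMUSG00000051811, chromosome 7) gave the largest difference of all members. It encodes the isoform of the intermembrane-space subunit 6B of complex IV that is best known from testis. In male saline libraries its level ran from 2.14 to 4.68 CPM with a median of 2.94, and in male cisplatin libraries from 2.73 to 11.4 CPM with a median of 9.35. Of the 6 male cisplatin libraries, 5 lay above every male saline library and male cisplatin 6 did not. In female saline libraries it ran from 2.85 to 4.41 CPM (median 3.29), and the female cisplatin libraries held 6.25, 4.97, 6.27, 13.2 and 7.44 CPM, all above the saline range. The log2 fold change was 1.38 ± 0.29 (SE) in males (adjusted p = 0.00311, edgeR), 1.13 ± 0.28 in females (adjusted p = 0.0970) and 1.25 ± 0.20 in the mean cisplatin effect (adjusted p = 0.000234, a 2.39-fold rise). The male call held under each of 35 alternatives. Per length it remained a minor transcript, at 9.29 CPM per 1000 bases over all libraries.

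Cox6c, which encodes a small membrane subunit of complex IV, ran from 144 to 294 CPM in male saline (median 216) and from 179 to 458 CPM in male cisplatin (median 283). In female saline it ran from 142 to 246 CPM (median 206), and under cisplatin the libraries held 247, 209, 322, 386 and 307 CPM. In males 3 of 6 cisplatin libraries exceeded every saline library, and in females 4 of 5 did. Its mean cisplatin effect was 0.55 ± 0.15 on the log2 scale (adjusted p = 0.00918, edgeR), with 0.53 in males and 0.57 in females, neither of which passed alone. The gene Vps13b overlaps Cox6c on the opposite strand, and no source used here states whether the counting took strand into account.

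Ndufa2 and Ndufa7 encode accessory subunits in the peripheral arm of complex I. Ndufa2 (chromosome 18) lay between 70.5 and 82.7 CPM in male saline libraries, and the male cisplatin libraries ran from 69.0 to 299 CPM with a median of 105. The value of 299 CPM was male cisplatin 5, and the next highest was 154 CPM. Female saline libraries ran from 68.9 to 85.2 CPM (median 72.3), and the cisplatin libraries held 86.5, 71.7, 92.7, 133 and 108 CPM. The saline libraries were tightly grouped, and 5 of 6 male and 4 of 5 female cisplatin libraries lay above them. The male log2 fold change was 0.83 ± 0.23 (adjusted p = 0.0166, edgeR) and fell to 0.42 without male cisplatin 5 (adjusted p = 0.0611), and the mean cisplatin effect was 0.62 ± 0.17 (adjusted p = 0.00877). Ndufa7 (chromosome 17) showed the same order with smaller differences, from 82.4 to 91.6 CPM in male saline and from 83.4 to 224 CPM in male cisplatin. Its male log2 fold change was 0.55 ± 0.16 (adjusted p = 0.0222) and 0.30 without male cisplatin 5 (adjusted p = 0.0706), and its mean cisplatin effect was 0.44 ± 0.12 (adjusted p = 0.00770, edgeR). The gene Tmco6 overlaps Ndufa2 on the opposite strand.

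**Figure D2:**
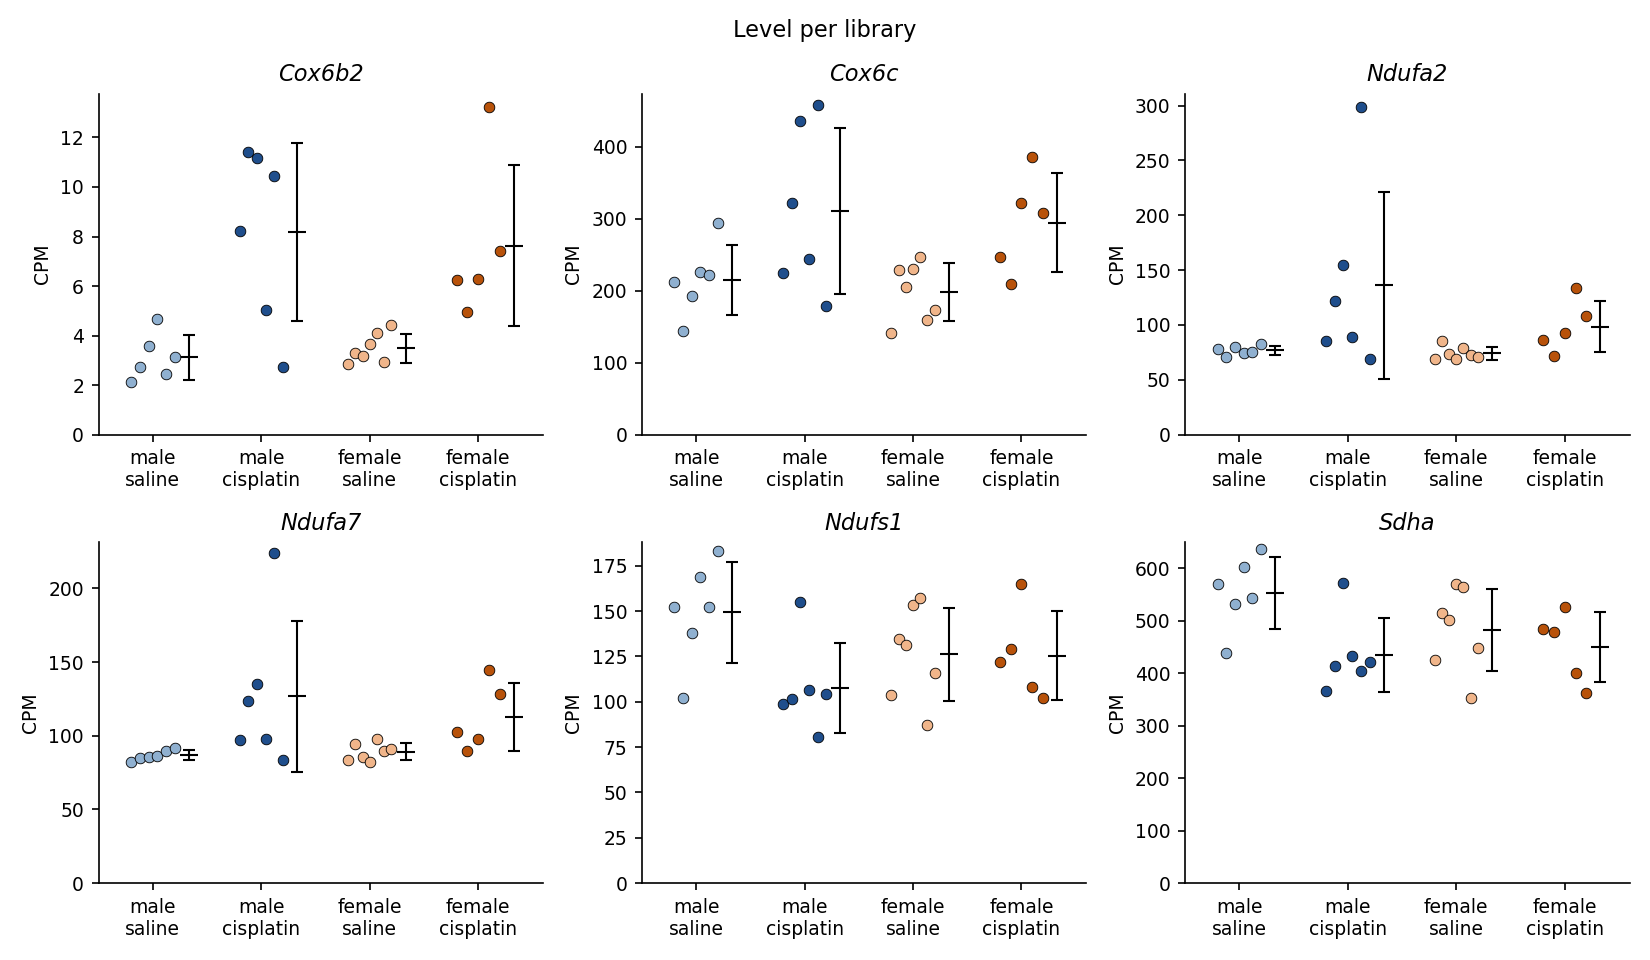
CPM (with TMM-scaled library sizes) of 6 nuclear genes, with 1 point per library in order of replicate number and the mean ± SD beside each group. Cox6b2 lies above the saline range in 5 of 6 male and 5 of 5 female cisplatin libraries, while Ndufs1 and Sdha overlap between treatments.

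In males alone, 4 nuclear subunit genes were higher (Cox6b2, Ndufa2, Ndufa7 and Uqcrq) and 1 was lower (Ndufs1), which are 5.00% of 80 higher against 13.2% of all tested genes higher and 7.54% lower. The median of the 80 was 0.27 and that of all tested genes 0.02. Leaving out a library moved the male count of higher genes to between 1 and 18: it was 1 without male cisplatin 5, 7 without male saline 6, and 13, 14 and 18 without male cisplatin 1, 4 or 6. In females 0 of 80 passed by edgeR, with 7 higher at an unadjusted p under 0.05 and 1 (Cox6b2) by DESeq2, where 0.272% of all tested genes passed in either direction. The female median was 0.28, and 77 of 80 were above 0. The test of the male against the female effect gave 0 members past the threshold and 0 at an unadjusted p under 0.05, by edgeR and by DESeq2, and over all genes it called 0.0% (772 of 18005 at an unadjusted p under 0.05). A difference between the sexes was not detectable with these libraries, which does not show that the sexes responded alike.

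Complex I was described by its position in the enzyme. The 7 nuclear core subunits carry the flavin and the iron-sulphur clusters, and 0 of 7 passed in the mean cisplatin effect, with 1 at an unadjusted p under 0.05 (Ndufs1) and 0 by DESeq2. Their median log2 fold change was 0.19. Of 29 tested accessory subunit genes, which surround the core, 10 were higher and 29 of 29 were above 0, with a median of 0.31. Beside Ndufa2 and Ndufa7, these were led by Ndufb8 (0.31 ± 0.09, adjusted p = 0.0181), Ndufa6 (0.39 ± 0.12, adjusted p = 0.0194) and Ndufa5 (0.41 ± 0.13, adjusted p = 0.0257, edgeR). Ndufa5 and Ndufa6 lost the call without female cisplatin 4 (adjusted p = 0.0616 and 0.0595), and Ndufa5 also without male cisplatin 3 (adjusted p = 0.0518). The difference between core and accessory genes was not tested.

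Ndufs1, the largest core subunit, had the lowest mean cisplatin effect in complex I (-0.24 ± 0.12, adjusted p = 0.119). It ran from 102 to 183 CPM in male saline (median 152) and from 80.4 to 155 CPM in male cisplatin (median 103). The ranges overlapped, with 5 of 6 cisplatin libraries at or below 107 CPM and male cisplatin 3 at 155 CPM. In males it was lower by edgeR (log2 fold change -0.47 ± 0.16, adjusted p = 0.0411). The adjusted p rose to between 0.0550 and 0.0944 when male saline 1, 4, 5 or 6 or male cisplatin 1, 2, 4 or 5 was left out, and to 0.216 when the tubule marker score entered as a covariate. In females the log2 fold change was -0.01 ± 0.16 (adjusted p = 0.982). Eef1b2, an abundant gene on the opposite strand, overlaps it.

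Complex II oxidises succinate and belongs to both the citric acid cycle and the respiratory chain. None of its 4 genes passed in males, females or the mean cisplatin effect by edgeR. At an unadjusted p under 0.05 there was 1 in males and in the mean effect (Sdha), and DESeq2 called Sdha in males. Sdha, the flavoprotein, had 438 to 636 CPM in male saline (median 557) and 366 to 572 CPM in male cisplatin (median 417). The male log2 fold change was -0.35 ± 0.13 (adjusted p = 0.0527, edgeR), and 5 of 6 male cisplatin libraries lay below every male saline library. Sdha passed in males without male saline 2, male cisplatin 3, female saline 6 or female cisplatin 5 (adjusted p from 0.0220 to 0.0475). It passed in the mean effect without the first 3 of these or female cisplatin 3 (adjusted p from 0.0264 to 0.0433). In females it was -0.10 ± 0.13 (adjusted p = 0.745). The iron-sulphur subunit gene Sdhb and the membrane anchor genes Sdhc and Sdhd had mean effects of 0.06 ± 0.13, 0.06 ± 0.09 and 0.10 ± 0.12. In male cisplatin 3 the 4 genes summed to 1269 CPM, against 752 to 880 CPM in the other 5 male cisplatin libraries.

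Complex III passes electrons from ubiquinol to cytochrome c. Of its 9 nuclear genes 2 were higher in the mean cisplatin effect, Uqcrq and Uqcr10, both for small accessory subunits, and the median was 0.21. Uqcrq ran from 110 to 181 CPM in male saline (median 137) and from 114 to 366 CPM in male cisplatin (median 184). In females it ran from 99.5 to 144 CPM under saline (median 130), with 143, 127, 173, 226 and 210 CPM under cisplatin. In each sex 3 cisplatin libraries exceeded every saline library and the others overlapped. Its mean cisplatin effect was 0.56 ± 0.16 (adjusted p = 0.0121, edgeR), and its male call (0.63 ± 0.22, adjusted p = 0.0476) was lost in 26 of 35 alternatives. Uqcr10 had a mean effect of 0.49 ± 0.16 (adjusted p = 0.0246), which no longer passed without male cisplatin 3 or female cisplatin 4 or 5 (adjusted p from 0.0530 to 0.0549). The core protein gene Uqcrc2 was lowest in the complex, at -0.14 ± 0.12 (adjusted p = 0.370).

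In complex IV, cytochrome c oxidase, 3 of 15 tested nuclear genes were higher in the mean cisplatin effect (Cox6b2, Cox6c and Cox7c), and the median was 0.32. Cox7c, named after its value was seen, had 0.33 ± 0.12 (adjusted p = 0.0488), kept the call in 7 of 34 alternatives and has a near-identical pseudogene on chromosome 17. Several subunits come as a common and a tissue-restricted isoform, and their levels were compared per length. Over all libraries Cox4i1, the common form of subunit 4, had 725 CPM per 1000 bases, and Cox4i2, known from lung and from low oxygen, had 1.65. Cox7a2 had 207 and Cox7a1, the muscle form, 29.8 CPM per 1000 bases. Cox6a2 and Cox8b, which are muscle forms, were below the detection minimum of the rule, beside 636 and 632 CPM per 1000 bases for Cox6a1 and Cox8a. Cox6b1, the common partner of Cox6b2, had a mean cisplatin effect of 0.30 ± 0.14 (adjusted p = 0.112), Cox4i1 0.25 ± 0.15, Cox4i2 0.23 ± 0.22, Cox6a1 0.29 ± 0.14, Cox7a1 0.38 ± 0.24, Cox7a2 0.38 ± 0.16 and Cox8a 0.34 ± 0.13, and none of these passed. The 7 muscle markers summed to at most 2.41 CPM in saline and 5.88 CPM in cisplatin libraries, and 2 of the 3 tested (Mb and Tnni3) were higher in the mean cisplatin effect; their part in these values was not tested.

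Ndufa4, once counted as a complex I gene and now placed in complex IV, had a mean cisplatin effect of 0.32 ± 0.13 (adjusted p = 0.0752), and Ndufa4l2, its hypoxia-inducible paralog, had the lowest value of the complex (-0.22 ± 0.18, adjusted p = 0.365). Ndufa4l2 ran from 2.78 to 5.03 CPM in male saline and from 2.05 to 3.28 CPM in 5 male cisplatin libraries, while male cisplatin 5 held 7.52 CPM. Without that library Ndufa4l2 was lower in males (-0.57 ± 0.19, adjusted p = 0.0463) and in the mean effect (-0.41 ± 0.13, adjusted p = 0.0267, edgeR).

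Complex V, the ATP synthase, had 4 of 16 genes higher in the mean cisplatin effect, with a median of 0.29. Atp5d, for the delta subunit of the catalytic head, had 0.40 ± 0.13 (adjusted p = 0.0305). It ran from 171 to 262 CPM in male saline (median 214), from 182 to 454 CPM in male cisplatin (median 258) and from 159 to 239 CPM in female saline (median 197), and the female cisplatin values had a median of 244 CPM. In each sex 3 cisplatin libraries exceeded every saline library. The call was lost without male saline 2 or 3, male cisplatin 3 or 5, or female cisplatin 4 or 5 (adjusted p from 0.0510 to 0.0667). Atp5k, for the small subunit e, was the highest of the complex (0.50 ± 0.18, adjusted p = 0.0398) and kept its call in 16 of 34 alternatives. Atp5a1 and Atp5b, also for subunits of the catalytic head, were at -0.06 ± 0.12 and -0.05 ± 0.13. Atp5g1, Atp5g2 and Atp5g3 encode the same mature ring subunit c, and of the 3 only Atp5g2 passed (0.27 ± 0.09, adjusted p = 0.0375), while Atp5g3 had 0.29 ± 0.17 and Atp5g1 0.36 ± 0.18. Atp5g2 kept its call in 17 of 34 alternatives, and its closest copy, Gm10175, matches 88.2% of its transcript without a difference. Atpif1, which encodes the inhibitor of ATP hydrolysis by the synthase and whose symbol lies outside the rule, rose in the mean effect (0.73 ± 0.15, adjusted p = 0.00173) and in males (0.93 ± 0.22, adjusted p = 0.00584, edgeR). It ran from 35.7 to 44.2 CPM in male saline and from 38.4 to 141 CPM in male cisplatin. The value of 141 CPM was male cisplatin 5, and the next highest was 89.0 CPM.

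**Figure D3:**
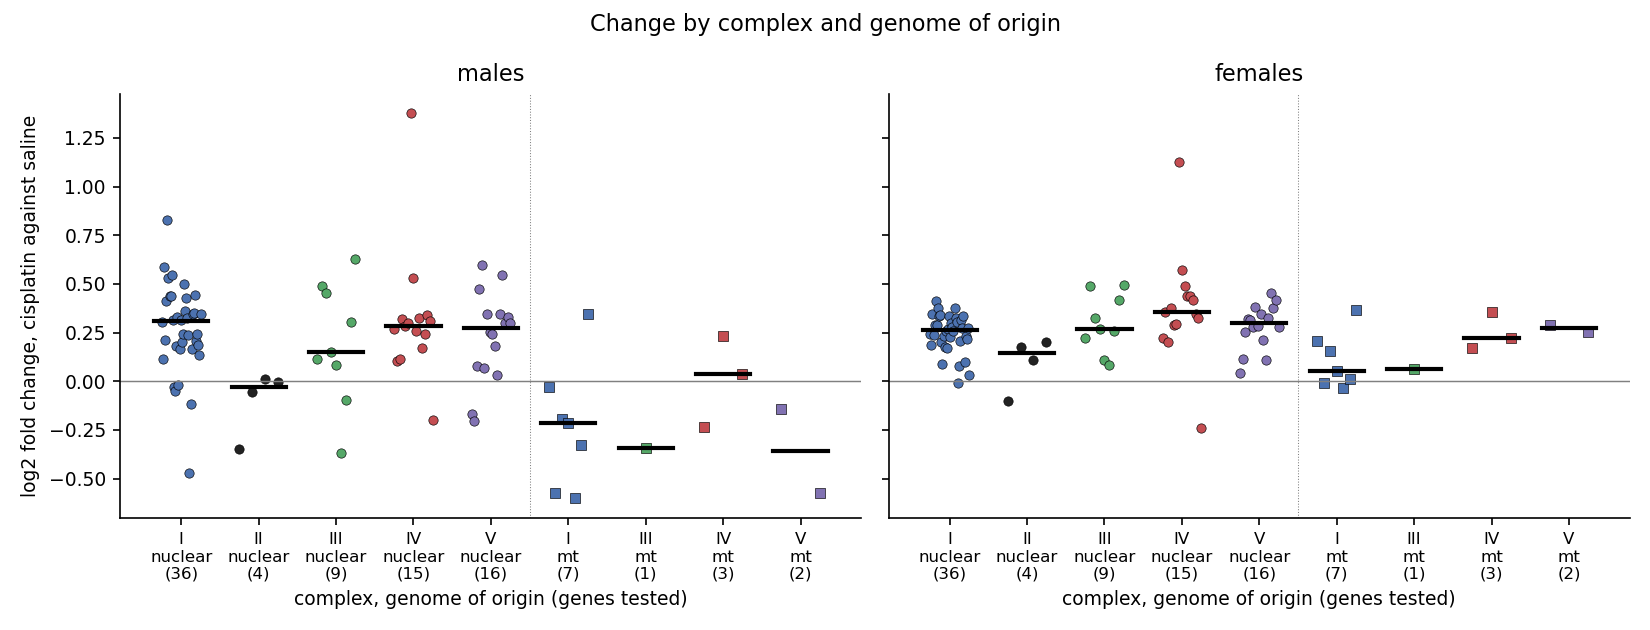
Log2 fold change of cisplatin against saline for each tested gene by complex and genome of origin in males (left) and females (right), with bars at the median. Nuclear genes of complexes I, III, IV and V lie mostly above 0 in both sexes, and complex II has the lowest nuclear median in each. Of the 13 mitochondrial genes, 10 lie below 0 in males and 11 above 0 in females. The sexes share no libraries.

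The transcripts of the higher members were mostly short, with 14 of 19 at or below 750 bases. Among the 80 tested nuclear subunit genes, log2 fold change fell with the length of the annotated principal transcript, with Spearman's rho of -0.64 in the mean cisplatin effect, -0.58 in males and -0.57 in females (across genes, which are not independent replicates and share libraries). Of 36 genes with transcripts of at most 750 bases, 14 were higher (38.9%) with a median of 0.35, and of 19 with more than 1500 bases 2 were higher (10.5%) with a median of 0.10. Other protein-coding genes showed the same order: 129 of 351 short genes were higher (36.8%, median 0.29), against 1665 of 12369 long ones (13.5%, median -0.03), and rho was -0.32 over 14562 genes. Between these classes the shares differed: 1 of 12 members of over 750 and up to 1000 bases was higher (8.33%, against 39.3% of other genes), and 2 of 13 of over 1000 and up to 1500 bases (15.4% against 30.1%), with medians of 0.27 against 0.26 and 0.22 against 0.17. In males 8.33% of the short members were higher, against 32.5% of other short genes. Complex II, with a median transcript of 2066 bases, lies at the long end, and complex IV, with a median of 645 bases, at the short end. The core genes of complex I ran from 983 bases (Ndufs7) to 2661 bases (Ndufs1), with Ndufs3 and Ndufs8 also below 1500 bases.

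The same comparison was made in each library. The mean log2 CPM of the short members minus that of the long members lay between -1.13 and -0.83 in the 13 saline libraries. In cisplatin libraries other than male cisplatin 5 it lay between -1.02 and -0.63, and it was -0.24 in male cisplatin 5. Of the 11 cisplatin libraries 6 lay inside the saline range, and male cisplatin 2, 3 and 5 and female cisplatin 4 and 5 lay above it. For other protein-coding genes the same difference lay between -1.29 and -1.07 in saline libraries, between -1.26 and -0.83 in the other cisplatin libraries and was -0.24 in male cisplatin 5, and the same 6 cisplatin libraries lay inside the saline range. In that library the 38 short members stood at a median of 1.96 times the median of the other male cisplatin libraries and the 19 long ones at 1.31 times. Length-centred offsets took out each library's smooth trend with transcript length over all genes. With them, 5 nuclear subunit genes were higher in the mean cisplatin effect and 0 lower. RNA integrity was not given in the labels, and the part of transcript length in the differences by complex was not tested.

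**Figure D4:**
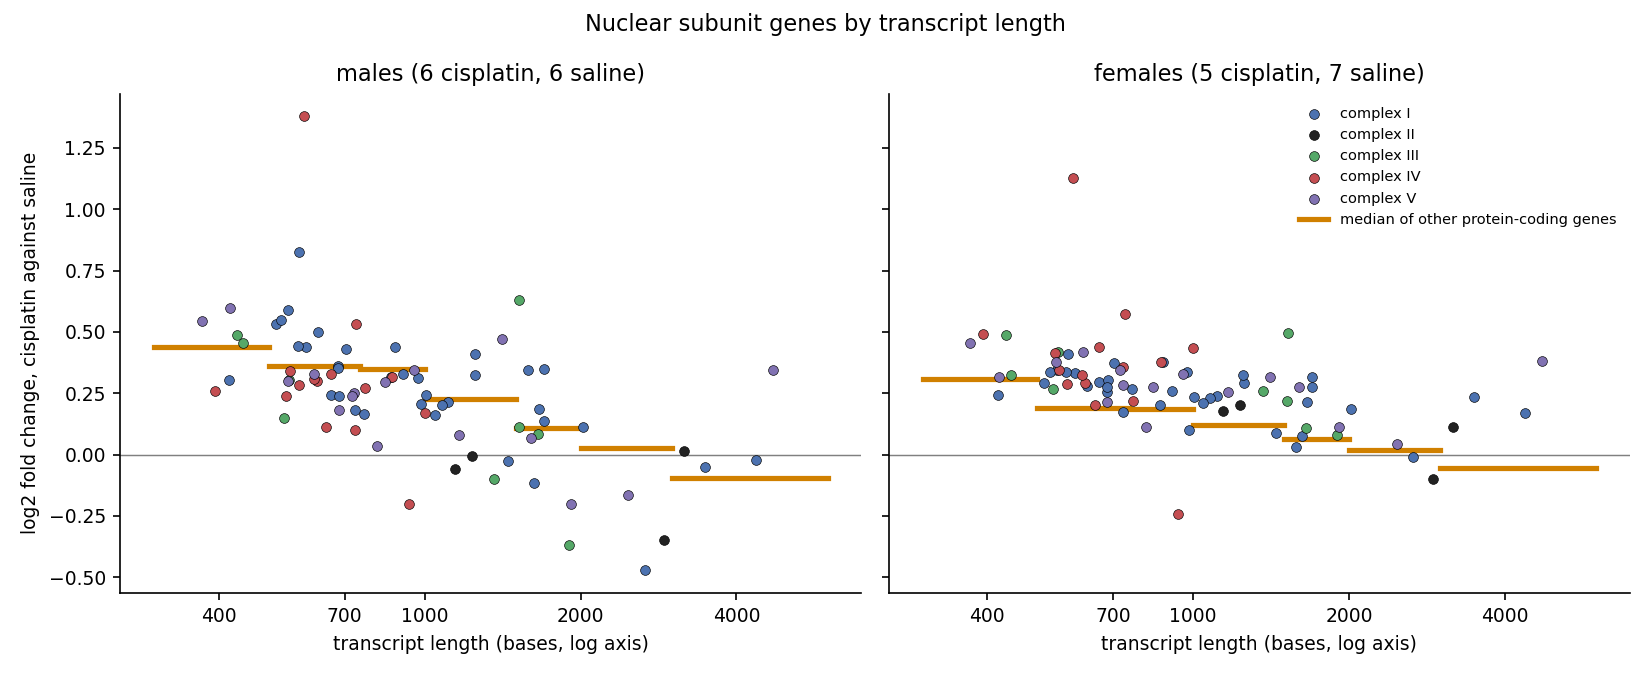
Log2 fold change of cisplatin against saline against transcript length (log axis) for the 80 tested nuclear subunit genes, coloured by complex, in males (left) and females (right). Orange bars give the median of other protein-coding genes in each length class, which fall with length in both sexes, as the members do.

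The mitochondrial genes fell into separate ranges of abundance that followed their position on the mitochondrial genome. Along that genome, mt-Nd1, mt-Nd2 and mt-Co1 had 6165, 3662 and 12250 CPM per 1000 bases over all libraries. The next 6 genes in order, mt-Co2, mt-Atp8, mt-Atp6, mt-Co3, mt-Nd3 and mt-Nd4l, had 22.9, 3.48, 23.0, 19.8, 33.5 and 6.98, and mt-Nd4, mt-Nd5, mt-Nd6 and mt-Cytb again had between 2115 and 8415. The lowest of the 7 abundant genes was 63.1 times the highest of the 6 others, and these 6 held 0.131% of all counts on mitochondrial protein genes. For comparison, the nuclear subunit genes had a median of 148 CPM per 1000 bases and at most 850 (Atp5b). The 6 genes were grouped after their values were seen.

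Of the 6 genes with few counts, 5 have a copy on chromosome 1, annotated as an unprocessed pseudogene, that matches at least 99% of their length with at most 1 different base. The copies had mean counts of 408 (Gm28661, of mt-Co2), 390 (Gm10925, of mt-Atp6), 283 (Gm28437, of mt-Co3), 35.2 (Gm28438, of mt-Nd3) and 23.8 (Gm10222, of mt-Nd4l). For mt-Atp8 no such copy was annotated at that identity, and it shares bases with mt-Atp6, as mt-Nd4l does with mt-Nd4. The stretches below are the first 60 bases of mt-Nd3 and of its copy, shown because gene and copy are identical after the first bases. The capital marks the only base of 345 that differs, T3C, counted from the first base of the gene.
mt-Nd3: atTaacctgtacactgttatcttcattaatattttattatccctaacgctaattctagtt
Gm28438: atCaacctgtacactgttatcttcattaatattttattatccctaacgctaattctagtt
The closest copy of the abundant mt-Co1, Gm13340 on chromosome 2, differs at 37 of 1545 bases. Bases 460 to 519 of both are shown, where the capitals mark A462G, A468G, T501C and C519T.
mt-Co1: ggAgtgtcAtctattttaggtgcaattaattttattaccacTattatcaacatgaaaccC
Gm13340: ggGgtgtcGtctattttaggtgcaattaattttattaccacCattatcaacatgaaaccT
The exception was mt-Nd4, which matches Gm28439 without a difference over 63.6% of its length and was abundant. The sources used here do not state how reads with several placements were counted, so the levels of the 6 genes and of mt-Nd4 are uncertain, and the part of the copies in their differences was not tested.

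**Figure D5:**
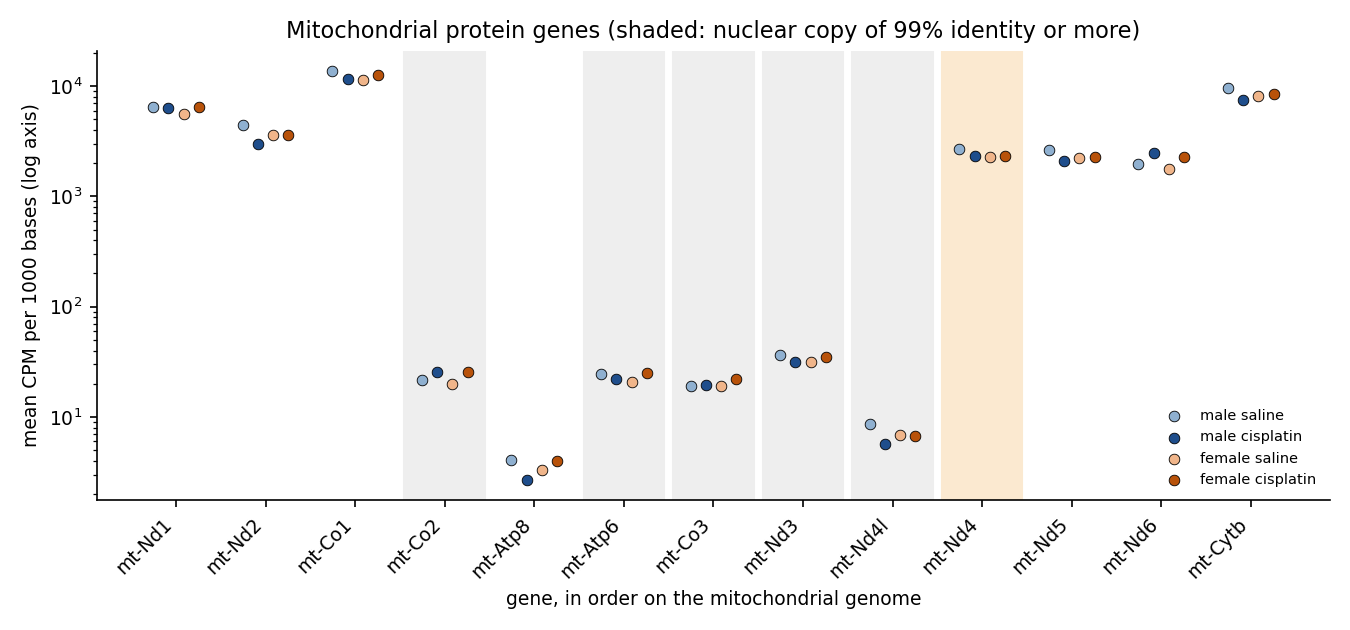
Mean CPM per 1000 bases (log axis) of the 13 mitochondrial protein genes in order on the mitochondrial genome, with 1 point per group. Shading marks genes with a nuclear copy of at least 99% identity, orange for mt-Nd4, and the 6 genes from mt-Co2 to mt-Nd4l lie at or below 37 CPM per 1000 bases in every group.

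No mitochondrial gene passed under cisplatin in males, females or the mean effect by edgeR or DESeq2. In males 10 of 13 had a log2 fold change below 0 and 2 had an unadjusted p under 0.05, mt-Nd2 (-0.57 ± 0.23, adjusted p = 0.0767, edgeR) and mt-Nd4l (-0.60 ± 0.28, adjusted p = 0.129). Of the abundant genes, mt-Co1, for the catalytic subunit of complex IV, had -0.23 ± 0.25, mt-Cytb, the only mitochondrial gene of complex III, -0.35 ± 0.21, mt-Nd5 -0.33 ± 0.29, mt-Nd4 -0.21 ± 0.22 and mt-Nd1 -0.03 ± 0.19. All male values in this paragraph before single libraries are left out include male cisplatin 5. That library had the lowest mt-Nd2, mt-Nd4l, mt-Co1 and mt-Nd5 of all libraries, and male effects without it are not given here. In females 11 of 13 were above 0 and 0 had an unadjusted p under 0.05. Every one of the 13 male effects was below the female effect, but the difference did not pass for any gene (smallest unadjusted p = 0.0792, for mt-Atp8, and adjusted p = 0.943 by edgeR). The 13 genes share long precursor transcripts and are not independent. In the mean effect the highest was mt-Nd6 (0.36 ± 0.14, adjusted p = 0.0609), which lies on the other strand and overlaps mt-Nd5, and the next was mt-Co2 (0.29 ± 0.13, adjusted p = 0.0936). The gene mt-Nd6 passed without female saline 5 or male cisplatin 4, and with mt-Co2 without male cisplatin 6, and mt-Nd2 was lower in males without male saline 2 or male cisplatin 3.

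In male saline libraries mt-Nd2 ran from 2661 to 5653 CPM and in male cisplatin from 1681 to 4980 CPM. The corresponding ranges of mt-Co1 were 13170 to 25980 CPM and 6544 to 28050 CPM, so the male groups overlapped. In females mt-Co1 ran from 9884 to 23780 CPM under saline and held 21120, 20210, 21570, 18310 and 16780 CPM under cisplatin. The other named values of mt-Co3, mt-Atp6, mt-Atp8 and mt-Nd3 in the mean effect were 0.13 ± 0.13, 0.07 ± 0.15, -0.16 ± 0.23 and -0.02 ± 0.14.

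In male cisplatin 5 the abundant mitochondrial genes were not lowered alike. Relative to the median of the other male cisplatin libraries, mt-Nd5 (1824 bases) stood at 0.144 times, with 672 CPM against at least 2491 CPM in every other library, and mt-Co1 (1545 bases) at 0.340 times. The genes mt-Nd2 and mt-Cytb stood at 0.545 and 0.689 times, mt-Nd1 at 0.829, mt-Nd4 at 0.948 and mt-Nd6 at 1.02 times. Among these 7 genes the longest were lowest and the shortest was not lowered, though mt-Nd4 (1378 bases) and mt-Nd2 (1038 bases) did not follow that order. The 6 genes with few counts did not follow it either. The short mt-Atp8 (204 bases) and mt-Nd4l (297 bases) stood at 0.172 and 0.372 times. The others, mt-Atp6, mt-Co3, mt-Co2 and mt-Nd3, stood at 0.647, 0.977, 1.39 and 1.75 times. Of the 82 nuclear subunit genes, 39, with the pseudogene Cox6c2 among them, had their highest level of all 24 libraries in male cisplatin 5, and 2 their lowest. The share of all genes with their highest level in this library was not taken, so the count cannot be read as particular to these genes.

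Between the sexes, 0 members passed under saline and 0 under cisplatin by edgeR and by DESeq2. Of all tested genes 0.189% passed under saline and 0.156% under cisplatin. Under saline 75 of 80 nuclear subunit genes and 12 of 13 mitochondrial genes were lower in females, none with an unadjusted p under 0.05. Under cisplatin 66 nuclear subunit genes were lower and 12 mitochondrial genes higher in females, and 1 gene had an unadjusted p under 0.05.

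Genes that serve the complexes without being part of them were counted from lists. Of 44 tested assembly factor genes, 6 were higher and 2 lower in the mean cisplatin effect, where 16.2% of all tested genes were higher and 10.9% lower, so the list's share of higher genes was not above that of all genes. Surf1 and Cox18, which act in building complex IV, had 0.29 ± 0.08 (adjusted p = 0.00796) and 0.23 ± 0.09 (adjusted p = 0.0478), and Acad9, a complex I assembly factor, had -0.33 ± 0.09 (adjusted p = 0.0124, edgeR). Of 19 genes for replication, transcription and RNA handling in mitochondria, 3 were higher and 1 lower. Ssbp1, for the mitochondrial single-strand binding protein, rose (0.40 ± 0.08, adjusted p = 0.00110), while Lrpprc, which stabilises mitochondrial messenger RNA, fell (-0.41 ± 0.08, adjusted p = 0.00143) and its short partner Slirp rose (0.36 ± 0.13, adjusted p = 0.0439). Of 12 regulators of mitochondrial biogenesis, 0 were higher and 4 lower: Ppargc1b, Ppara, Esrrg and Gabpa, at -0.52, -0.71, -0.60 and -0.24. Of 14 genes for cytochrome c, coenzyme Q and electron transfer flavoprotein, 3 were higher and 0 lower, led by Etfb (0.88 ± 0.22, adjusted p = 0.00646, edgeR). Among protein-coding genes other than members, 18.4% of those over 3000 bases were lower and 9.40% higher. Of those of at most 750 bases, 3.13% were lower and 36.8% higher. The part of transcript length in these lists was not tested, and the dependence of their calls on single libraries is not given here.

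Some markers of other cells differed with the treatment, in one or both directions depending on the list. In the mean cisplatin effect, 3 of 6 interstitial markers and 4 of 6 endothelial markers were lower and 0 were higher, against 10.9% of all tested genes lower and 16.2% higher. The interstitial sum ran from 384 to 452 CPM in male saline and from 69.1 to 336 CPM in male cisplatin libraries, and from 212 to 498 CPM and 174 to 403 CPM in females. The endothelial sum ran from 1850 to 2290 CPM in male saline and from 602 to 2260 CPM in male cisplatin. In females it ran from 1570 to 2540 CPM under saline and from 1250 to 2040 CPM under cisplatin. In females alone 0 interstitial and 0 endothelial markers passed by edgeR, where 0.272% of all tested genes did. Of 8 thick ascending limb markers 1 was lower (Egf), and of 16 proximal tubule markers 0 passed by edgeR. The median log2 fold changes of these 2 lists were -0.04 and -0.62, and the latter was -0.55 in males and -0.59 in females. No marker of these 4 lists was at 0 in every library of a group. Of 9 intercalated cell markers, 3 were lower and 0 higher in the mean cisplatin effect. Other lists had calls in both directions there. Of 9 principal cell markers 1 was higher and 2 lower, and of 7 thin limb markers 1 was higher and 1 lower. Of 7 macrophage markers 1 was higher and 1 lower, and of 5 tested distal convoluted and connecting tubule markers 2 were higher and 3 lower. When the tubule marker score was a covariate, 27 nuclear subunit genes were higher in the mean cisplatin effect and 0 lower. The part of the other markers in the members' differences was not tested.

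Promoters were examined because the nuclear members are known to share regulators of mitochondrial biogenesis, and the short motifs of 4 of these were searched on both strands. RefSeq windows of 250 bases before and 50 after the start (build GRCm38.p6) were found for 64 of 82 nuclear subunit genes, 69 windows in all. The letters GCGCATGC, a core of the NRF1 site, were in 14.5% of these windows and in 2.71% of all 32817 windows. The letters AAGATGGC of the YY1 site were in 9 of the 69 windows and in 2.74% of all, CCGGAAGT of the GABPA site in 7.25% and 3.89%, and TCAAGGTCA of the ERR site in 2.90% and 0.424%. None of the searched motifs contains another, and a match is a description of the sequence only. The 250 bases before the start of Ndufa6 (chr15:82354292-82354541, minus strand), which rose, and of Cox6b2 (chr7:4753095-4753344, minus strand), the member with the largest rise, show both cases. The capitals in Ndufa6 mark the NRF1 letters, read there on the other strand, and the Cox6b2 window holds none of the 4 motifs.
Ndufa6: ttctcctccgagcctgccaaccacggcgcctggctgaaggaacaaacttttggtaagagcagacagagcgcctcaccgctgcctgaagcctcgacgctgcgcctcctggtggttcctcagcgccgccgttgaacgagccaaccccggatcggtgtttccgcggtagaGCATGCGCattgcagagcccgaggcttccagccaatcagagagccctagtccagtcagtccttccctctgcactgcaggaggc
Cox6b2: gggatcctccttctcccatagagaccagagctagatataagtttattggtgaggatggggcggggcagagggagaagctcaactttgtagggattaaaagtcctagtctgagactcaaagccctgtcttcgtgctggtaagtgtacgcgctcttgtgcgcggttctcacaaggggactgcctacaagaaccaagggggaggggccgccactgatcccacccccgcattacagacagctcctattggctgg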

How the data were processed

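RNA from inner medulla was selected for poly(A) and sequenced by a service provider, per the labels' protocols. The values are the counts per gene and library that the authors deposited. Trim Galore 0.6.7, Subread 2.0.1, featureCounts, DESeq2 1.28.1 and the build mm10 are named in the submitters' processing notes. No source used here states the aligner, annotation release, strand setting or treatment of reads with several placements, and such reads bear on mitochondrial genes with nuclear copies.

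Of 55416 identifiers, 52083 had a symbol in the reference table of names, and 2147 that begin ENSMUSG00002 are not in the annotation used for lengths, overlaps and copies (GENCODE M21). Transcript lengths are those of that annotation's principal transcripts, which may not be the forms expressed. The 24 libraries were grouped by their labels. The filterByExpr filter (minimum count 10) set which genes were tested. They were scaled by TMM and fitted with a mean per group by edgeR 4.0.16 in R 4.3.3 (quasi-likelihood test, Benjamini-Hochberg adjusted p under 0.05 over 18005 genes). Levels are CPM with TMM-scaled sizes. DESeq2 1.42.0 was an alternative. Other alternatives changed the scaling, the filter, the libraries or the covariates, and 2 settings that centre genes by length were added after seeing the data. The fit was checked on simulated counts for the male comparison only, without an outlying library. Recovery was required only of changes larger than those of any member called here. Named genes are all mitochondrial genes, complex II, isoform pairs, members called (the 10 of smallest p where over 20 were), and the extremes of each complex. The members and lists were chosen with earlier results of these data known.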

Additional observations from a re-analysis of the deposited data

Results flagged for a closer look

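In 16 measures and 4 groups each, 64 sets of values, 8 single values lay further from their group than Dixon's 95% limit allows, where chance flags about 1 in 20 sets. Male cisplatin 5 gave 5 of them. Its log2 ratio of mitochondrial to nuclear share was 0.11, against 1.52 to 1.84 in the other male cisplatin libraries, and its short minus long difference of the nuclear members was -0.24, against -1.02 to -0.79. It also had the highest Ndufa2 (299 CPM, others 69.0 to 154), Ndufa7 (224 CPM, others 83.4 to 135) and Ndufa4l2 (7.52 CPM, others 2.05 to 3.28). Male cisplatin 3 had the highest sum of complex II genes (1269 CPM, others 752 to 880) and the highest Ndufs1 (155 CPM, others 80.4 to 107). Female cisplatin 5 had the lowest Ndufa4l2, 2.46 CPM against 3.68 to 4.10 in the other female cisplatin libraries.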

How the results depend on the processing

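No pairing of libraries by replicate number was seen, though pairs of unequal number were not compared. Over 22 pairs of equal number, correlations of deviations from group means had a median of -0.039 and ranged from -0.297 to 0.169. With the replicate block, 6 nuclear subunit genes were higher in the mean cisplatin effect in place of 19. Without male cisplatin 5 and female saline 1 and 6, the count was 4 higher and 2 lower, with length-centred offsets 5 and 0, with these and male cisplatin 5 left out 5 and 1, and with library totals 1 was lower. In males the higher count of 4 became 1 with each sex fitted alone, 1 without those 3 libraries, and 2 and 1 with length-centred offsets with and without male cisplatin 5. The lower count of 1 became 2 with DESeq2 size factors, the DESeq2 Wald test or library totals, and 0 with no filter, the tubule marker score, each sex alone or without the 3 libraries. Length-centred offsets gave 1 mitochondrial gene lower in males, and the DESeq2 Wald test 1 nuclear gene higher in females. The cause of these changes was not tested.

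Leaving out 1 library gave 6 to 38 nuclear genes higher and 0 to 2 lower in the mean effect, 1 to 18 higher and 0 to 3 lower in males, 0 to 1 higher in females, and for mitochondrial genes 0 to 2 higher in the mean effect and 0 to 1 lower in males. The mitochondrial share under cisplatin minus saline was -0.985 percentage points in males (-1.42 to -0.557 with 1 library left out) and 0.325 in females (0.0278 to 0.611), and -0.179 in females without the 3 libraries. Low counts kept Cox6c2 and Ndufb4c from being tested and limit mt-Atp8, with a mean count of 15.9.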
